A study of Mus musculus with 2 samples.

Results

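Fatty acids are burned inside mitochondria, and long-chain ones cannot cross the inner mitochondrial membrane unaided. Carnitine palmitoyltransferase 1 on the outer membrane moves the acyl group onto carnitine, the carnitine-acylcarnitine translocase Slc25a20 carries the product inwards, and carnitine palmitoyltransferase 2 returns the acyl group to coenzyme A. Beta-oxidation then shortens the chain in a repeated cycle, through acyl-CoA dehydrogenases that differ in the chain length they prefer and through the trifunctional protein, whose alpha and beta chains are Hadha and Hadhb. Heart and skeletal muscle use the muscle form Cpt1b and the cytosolic fatty acid carrier Fabp3, and the newborn changes from a supply rich in glucose to milk fat. The 10 genes described here, Cpt1a, Cpt1b, Cpt2, Slc25a20, Acadm, Acadl, Acadvl, Hadha, Hadhb and Fabp3, were chosen by name for these steps, and all 10 were found by Ensembl ID among the 43346 gene rows of each gene table.

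The tissue was skeletal muscle of B6NCrl mice on postnatal day 0, untreated, and the single group held 2 libraries of total RNA. Replicate 1 comes from the first pup and replicate 2 from the second pup of the same pregnancy in the labels' wording, but both carry the same donor entry, so the spread between them is biological only if they are separate animals. The muscle is not named in the labels and the sex was not recorded. The summed expected counts were 40455042 in replicate 1 against 37151129 in replicate 2, and the 10 genes had from 1738 to 34756 counts per library. All 8 skeletal muscle markers were at or above 1 TPM, as were 58.2% of 21474 protein-coding genes. The skeletal actin gene Acta1 led them at 49664 and 57562 TPM. Markers of some other tissues were unequal between the libraries. The 8 adipocyte markers summed to 5025 TPM in replicate 1 and 897 TPM in replicate 2, and the 6 epidermis markers to 432 and 4.23 TPM. The 5 endothelium markers were nearer to equal, with sums of 215 and 199 TPM. The pups could not be tested against each other, since each gave 1 library, and for the ratio of a pair of genes an exact two-sided sign-flip permutation test over 2 libraries cannot go below p = 0.5. No p-value is therefore given. Levels are mean ± SD (n = 2) in TPM, reads per length of transcript scaled to a fixed sum, and differences between the pups as replicate 1 over replicate 2. In whole tissue, fewer cells of a type and less RNA per cell cannot be told apart.

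Hadha and Hadhb, which encode the chains of a single enzyme complex, lie head to head on chromosome 5. Their RefSeq transcription starts (GRCm38.p6) were 273 bases apart, on opposite strands, and the 250 bases upstream of each start shared 228 bases. That stretch is shown for Hadhb, followed by the upstream 250 bases of Acadm, the member that differed from the others between the pups, and of Cpt1a, the member with the lowest level. Capitals mark the motifs found, and each sequence ends at the base before the RefSeq start. The GENCODE M21 annotation places some starts elsewhere. Its first exon of the protein-coding model Hadha-205, 30154882 to 30155162, lies partly in the Hadha window and partly in the Hadhb window. The Cpt1a window lies inside the GENCODE M21 span of that gene, which begins at 3322334.
Hadhb, chr5:30155003-30155252, plus strand: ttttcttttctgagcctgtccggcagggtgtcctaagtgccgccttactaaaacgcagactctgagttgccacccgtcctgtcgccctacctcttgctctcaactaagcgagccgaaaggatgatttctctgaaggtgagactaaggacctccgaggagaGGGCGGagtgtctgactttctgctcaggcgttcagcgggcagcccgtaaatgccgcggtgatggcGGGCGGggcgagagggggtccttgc
Acadm, chr3:153944644-153944893, minus strand: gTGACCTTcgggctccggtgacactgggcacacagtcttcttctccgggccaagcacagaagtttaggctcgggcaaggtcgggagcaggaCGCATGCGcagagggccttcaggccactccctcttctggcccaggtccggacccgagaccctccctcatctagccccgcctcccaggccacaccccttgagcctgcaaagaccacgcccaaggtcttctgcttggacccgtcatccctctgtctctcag
Cpt1a, chr19:3323051-3323300, plus strand: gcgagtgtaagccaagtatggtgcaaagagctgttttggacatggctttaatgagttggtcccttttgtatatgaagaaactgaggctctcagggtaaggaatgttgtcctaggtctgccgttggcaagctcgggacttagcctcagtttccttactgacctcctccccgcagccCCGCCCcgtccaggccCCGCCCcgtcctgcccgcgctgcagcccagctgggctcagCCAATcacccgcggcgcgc
In Hadhb the capitals are 2 GC boxes (GGGCGG), and the first of them, at chr5:30155163-30155168, also lay in the Hadha window, on the strand opposite to that gene. In Acadm they are an estrogen-related receptor half-site (AAGGTCA, here on the opposite strand) and a pair of overlapping matches, 1 on each strand, to the core of the nuclear respiratory factor 1 motif (GCATGCG). In Cpt1a they are 2 GC boxes on the opposite strand and a CCAAT box.

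RefSeq windows were matched for 9 of the 10 genes, and both strands of each were searched. A GC box stood in 6 of the 9 (Acadl, Cpt2, Hadha, Hadhb, Slc25a20 and Cpt1a), against 32.7% of 32851 upstream windows of all genes. The only box of Hadha is the same site as the first box of Hadhb, so that site is counted for both genes. The receptor half-site, which estrogen-related receptors can bind, stood in 1 of the 9, against 4.08% of all windows, and the NRF1 core likewise in 1, against 3.02%. CCAAT was in 1 of the 9 windows, against 33.8% of all. A TATA box (TATAAA, 12.4% of all windows) and an exact direct repeat of the PPAR and RXR type (2 copies of AGGTCA with 1 base between them, 0.0335% of all windows) had no match in the 9. The GC content of the 9 windows ran between 49.6% and 68%, with a median of 52.4% over all windows. A match of letters is a description of the sequence and no evidence of binding.

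All 10 genes were expressed, and 9 of them were among the more abundant protein-coding transcripts of this muscle. Each reached a mean of at least 1 TPM, as did 58.2% of 21474 protein-coding genes. In TPM the order was Fabp3, Acadl, Hadhb, Acadvl, Acadm, Hadha, Cpt1b, Slc25a20, Cpt2 and Cpt1a. Among the expressed protein-coding genes Fabp3 stood at the 99.1 percentile and Cpt2 at the 85.9 percentile, while Cpt1a stood at the 55.4 percentile. Together the 10 genes took 0.320% and 0.331% of protein-coding TPM in replicates 1 and 2 (0.326% ± 0.0076).

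**Figure D1:**
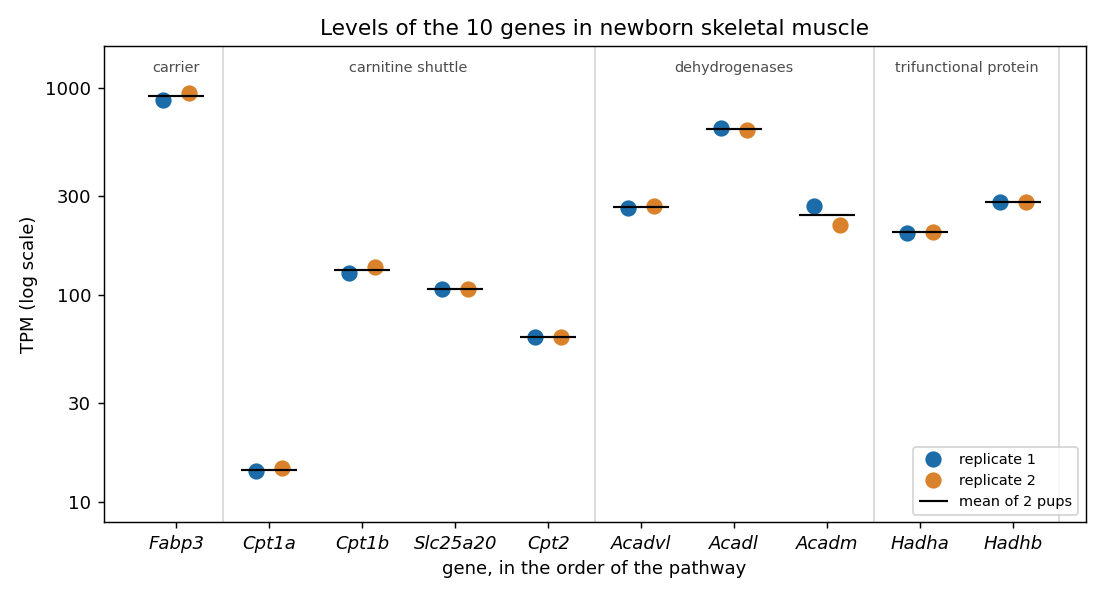
TPM of each of the 10 genes on a log scale, in the order of the pathway, with replicate 1 (blue) left of replicate 2 (orange) and a line at their mean. The points of a gene nearly coincide except for Acadm, at 270 and 219 TPM, and Cpt1a is the lowest at 14.1 and 14.6 TPM.

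Most of the carnitine palmitoyltransferase 1 transcripts were of the muscle form. Cpt1b (ENSMUSG00000078937, chromosome 15, 89416405 to 89425863, minus strand) had 128 and 137 TPM in replicates 1 and 2. Cpt1a, the form of liver and many other tissues (ENSMUSG00000024900, chromosome 19, 3322334 to 3385733, plus strand), had 14.1 and 14.6 TPM. The log2 ratio of Cpt1a to Cpt1b in TPM was -3.17 in replicate 1 and -3.22 in replicate 2 (-3.19 ± 0.03), so Cpt1b was 9.15-fold higher on average over the pups. Of the summed TPM of the 3 genes of the enzyme, Cpt1b held 87.2% ± 0.337, Cpt1a 9.48% ± 0.164 and Cpt1c, the form known from brain, 3.30% ± 0.172. The difference between the pups was far smaller than the distance between the forms.

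The carrier and the inner-membrane transferase were less abundant than Cpt1b. Slc25a20 (ENSMUSG00000032602, chromosome 9, 108662088 to 108684641, plus strand) had 108 and 107 TPM, and Cpt2 (ENSMUSG00000028607, chromosome 4, 107903981 to 107923610, minus strand) 62.5 and 63.1 TPM. In log2 TPM the carrier stood 0.77 ± 0.02 above Cpt2 and Cpt2 stood at -1.07 ± 0.06 against Cpt1b. Slc25a20 to Cpt1b was -0.25 and -0.35 on that scale, the smallest distance between neighbours of the shuttle. Each of these orders was the same in both pups.

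Among the acyl-CoA dehydrogenases, which take the first step of each cycle, the long-chain enzyme Acadl led. Acadl (ENSMUSG00000026003, chromosome 1, 66830839 to 66863277, minus strand) had 640 and 625 TPM. The very-long-chain enzyme Acadvl (ENSMUSG00000018574, chromosome 11, 70010183 to 70015411, minus strand) had 264 and 268 TPM, a log2 ratio to Acadl of -1.25 ± 0.04. The medium-chain enzyme Acadm (ENSMUSG00000062908, chromosome 3, 153922357 to 153944632, minus strand) had 270 TPM in replicate 1 and 219 TPM in replicate 2. Acadm and Acadvl therefore changed places, with a log2 ratio of Acadm to Acadvl of 0.03 in replicate 1 and -0.29 in replicate 2, and their order was not resolved. With the short-chain enzyme Acads as the fourth gene of the set, Acadl held 51.6% ± 1.29 of the summed TPM, Acadvl 21.7% ± 1.13, Acadm 19.9% ± 2.11 and Acads 6.82% ± 0.322.

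The trifunctional protein carries out the later steps on long chains, and of the gene pairs computed the ratio of its chains had the smallest SD between the pups. Hadha (ENSMUSG00000025745, chromosome 5, 30118304 to 30155162, minus strand) had 200.5 and 202 TPM, and Hadhb (ENSMUSG00000059447, chromosome 5, 30155248 to 30184593, plus strand) had 282 and 283 TPM. The log2 ratio of Hadha to Hadhb in gene TPM was -0.49 in each replicate (SD 0.003), and its size depends on the transcript models of Hadha described below. Hadhb had the lowest coefficient of variation of the 10 genes in TPM, 0.330%.

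Fabp3, the heart and skeletal muscle form of the fatty acid binding proteins (ENSMUSG00000028773, chromosome 4, 130308595 to 130315463, plus strand), was the most abundant of the 10 genes, with 880 and 946 TPM. It was not the most abundant binding protein in both pups. Fabp4, the adipocyte form, had 2591 TPM in replicate 1 and 787 TPM in replicate 2, so the log2 ratio of Fabp3 to Fabp4 was -1.56 in replicate 1 and 0.27 in replicate 2. Of the TPM of the 9 genes of this family, Fabp3 held 23.7% in replicate 1 and 49.7% in replicate 2. Fabp4 held 69.9% and 41.4%.

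Between the pups the 10 genes differed about as much as other genes did. None of the 10 passed a 2-fold difference, which 2.39% of the 12429 genes with at least 100 mean counts did, so a count of 0 is near that background. The median absolute log2 ratio was 0.16 in the 10 genes and 0.15 over all genes, and 4 of the 10 were at or below the all-gene value. Their log2 ratios of replicate 1 over replicate 2, in CPM (counts scaled to a fixed library sum) after scaling by the trimmed mean of M-values (TMM), had a median of -0.15, against 0.00 over those 12429 genes, whose middle range, between the quartiles, ran from -0.15 to 0.16. Cpt1b had the lowest ratio of the 10, -0.26, and Fabp3 followed at -0.25. Acadm alone had a positive ratio, 0.15, at the 74.2 percentile of all genes. Its coefficient of variation in TPM was 14.7%, and the next, that of Fabp3, was 5.14%.

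**Figure D2:**
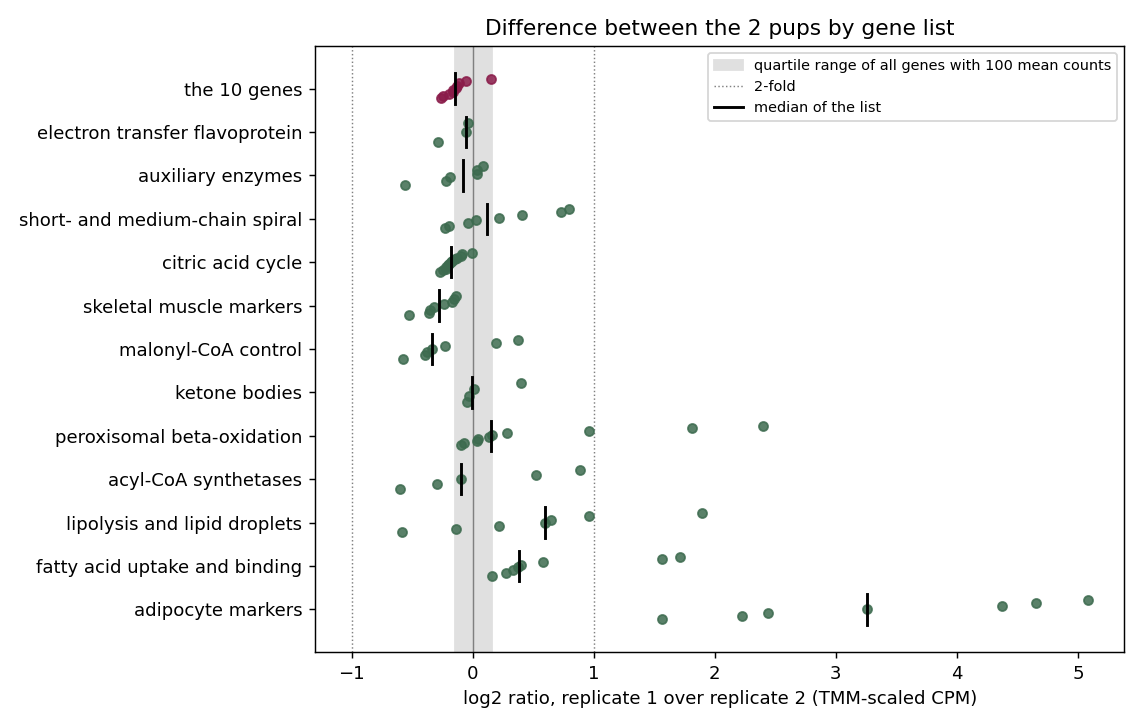
Log2 ratio of replicate 1 over replicate 2 (TMM-scaled CPM) for each gene with at least 100 mean counts, by list, with the list's median (black bar), the range between the quartiles of all 12429 genes (grey) and the 2-fold lines (dotted). The 10 genes lie between -0.26 and 0.15, while all 7 adipocyte markers lie above 1.

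With the TMM scaling taken as exact and each read taken as independent, most of these small ratios were resolved from counting error. The exact 95% counting interval of the fold excluded 1 in 9 of the 10 genes, and in 53.1% of the 12429 genes. It lay below 1 in 8 of the 10, against 26.7% of all genes, and above 1 in Acadm alone, against 26.4%. Such an interval narrows as counts rise, and the 12429 genes were not matched to the 10 in count. Their median level was 12.7 TPM, against 223 TPM in the 10, so these shares are not a like comparison. For Acadm the fold was 1.11 (interval 1.09 to 1.14), for Cpt1b 0.836 (0.813 to 0.859) and for Cpt2, the gene whose interval held 1, 0.964 (0.920 to 1.01). These intervals cover the sampling of reads only and not the differences between animals, dissections or libraries. They were computed with TMM only, so the counts of intervals below and above 1 hold for that scaling. The sign of so small a ratio depends on the scaling. The ratio was negative in 9 of the 10 genes with TMM, in 8 with plain CPM of the whole library and in 7 with TPM, where the median of all genes moved to 0.10 and 0.15. Against the all-gene median of the same scaling, 9 of the 10 genes were below it in each of these, and the median distance was -0.15 with TMM and with whole-library CPM and -0.16 with TPM.

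The list of citric acid cycle genes had ratios of like size, and the skeletal muscle markers had a lower median. All 13 citric acid cycle genes had negative TMM ratios, with a median of -0.18. Against the all-gene median of each scaling they were below it in 13 of 13 with TPM too, but only 9 of the 13 were negative there. Mdh2, the mitochondrial malate dehydrogenase, had 904 and 947 TPM, and the succinate dehydrogenase subunit Sdhb 669 and 681 TPM. The 8 skeletal muscle markers had a median of -0.28, all 8 negative with TMM and 7 of 8 with TPM. The adipocyte markers went the other way under all of these scalings, with a TMM median of 3.26 over the 7 that had 100 mean counts. Other lists of the pathway did not all have negative medians. The list with Acaa2, Hadh and Echs1 had a TMM median of 0.12, with 5 of its 8 genes positive. The median was -0.05 in the electron transfer flavoprotein genes, -0.08 in the auxiliary enzymes and -0.01 in the ketone body enzymes. It was 0.60 in lipolysis, 0.39 in fatty acid uptake and binding, 0.15 in peroxisomal and 0.08 in branched-chain genes. It was -0.33 in malonyl-CoA control, -0.21 in the PPAR and ERR list, -0.10 in the acyl-CoA synthetases and -0.0005 in carnitine uptake and other transferases. The part of fat and skin tissue in the ratios of the 10 genes was not tested.

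Genes beyond the 10 that serve the same pathway were grouped into 12 lists with 84 genes, of which 83 were matched. Of these, 81 reached 1 TPM, as did 58.2% of 21474 protein-coding genes, and 79 had 100 mean counts. In these 79 genes 7 were at least 2-fold higher in replicate 1 with TMM, against 2.23% of all genes, and 0 in replicate 2, against 0.161%. The 7 were Slc22a4, Slc27a1, Fabp4, Lipe, Acaa1b, Abcd2 and Pparg. In plain CPM Scp2 and Abhd5 joined these 7, and in TPM Acsl1 as well, which gave 9 and 10 genes. The median log2 ratio of the 79 genes was 0.03.

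The enzymes that complete the cycle in the mitochondrial matrix were abundant. The 3-ketoacyl-CoA thiolase Acaa2 had 479 and 509 TPM, 0.80 ± 0.06 above Hadhb in log2 TPM. The hydroxyacyl-CoA dehydrogenase Hadh had 178 and 166 TPM and the short-chain enoyl-CoA hydratase Echs1 157 and 107 TPM. Among the auxiliary enzymes, which deal with double bonds, branched residues and acyl-CoA hydrolysis, the enoyl-CoA isomerases Eci1 and Eci2 averaged 160.5 ± 14.1 and 159 ± 4.87 TPM and Hsd17b10 averaged 154 ± 13.2 TPM. Neither list had a gene past 2-fold. The electron transfer flavoprotein takes the electrons from the dehydrogenases, and its subunits Etfa and Etfb had 365 and 678 TPM in replicate 1 and 341 and 629.5 TPM in replicate 2. Their log2 ratio of Etfa to Etfb was -0.89 ± 0.01, and the oxidoreductase Etfdh, which passes the electrons to ubiquinone, averaged 144 ± 10.6 TPM.

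Carnitine acetyltransferase, Crat, which buffers acetyl-CoA, had 192 and 188 TPM and was the most abundant gene of its list. The peroxisomal octanoyltransferase Crot averaged 33.0 ± 1.1 TPM and Aldh9a1, an aldehyde dehydrogenase of carnitine synthesis, 18.3 ± 3.98 TPM. The plasma membrane carnitine transporter Slc22a5 was low, with 4.18 and 3.7 TPM. Its relative Slc22a4 had 3.56 TPM in replicate 1 and 0.46 TPM in replicate 2, from 224 and 28 counts.

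Malonyl-CoA inhibits carnitine palmitoyltransferase 1. The decarboxylase that removes it, Mlycd, had 82.5 and 97.9 TPM. The carboxylase isoform Acacb, which makes it at the mitochondrial surface, had 7.8 and 9.68 TPM, and the cytosolic isoform Acaca 2.62 and 2.7 TPM. In log2 TPM, Mlycd stood 3.36 ± 0.04 above Acacb, and Acacb stood 1.67 ± 0.19 above Acaca. Of the subunits of AMP-activated protein kinase, which phosphorylates the carboxylases, Prkab2 averaged 19.5 ± 1.82 TPM and Prkaa2 15.7 ± 1.77 TPM. The 7 genes of this list had a median log2 ratio of -0.33 with TMM, with 5 negative and 2 positive, and no gene past 2-fold. Acaca, positive at 0.37 with TMM, was lower in replicate 1 in TPM.

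As a list, genes of fatty acid uptake and binding differed more between the pups. Their median absolute log2 ratio was 0.39, against 0.15 over all genes. All 8 genes of the list with 100 mean counts were higher in replicate 1 with TMM scaling. The summed TPM of the list of 9 was 5076 in replicate 1 and 2466 in replicate 2, of which Fabp4 alone made up 2591 and 787 TPM. Cd36 had 275 and 223 TPM, a log2 ratio of 0.16, inside the range between the quartiles of all genes. The fatty acid transporter Slc27a1 had 110 and 30.1 TPM, a log2 ratio of 1.72, and Fabp4 had a log2 ratio of 1.57. Lipoprotein lipase, Lpl, had 403 and 227 TPM, and the acyl-CoA binding protein Dbi 1456 and 1032 TPM. Acsl1, a long-chain acyl-CoA synthetase that activates fatty acids before the shuttle, had 231 and 115 TPM. Acsl3 had 49.8 and 48.0 TPM and Acsl4 11.8 and 13.1 TPM, and neither had the difference of Acsl1. Acsl5 had 10.9 and 6.9 TPM, a log2 ratio of 0.52, the same direction as Acsl1. Acsl6 had 2.02 and 3.36 TPM, a log2 ratio of -0.60, the opposite direction. Of the 5 synthetases, 2 had positive and 3 had negative TMM ratios, with a median of -0.10. Adipocyte markers moved the same way as the uptake genes, from Adipoq at 381 and 36.0 TPM to Cfd at 1499 and 40.0 TPM, and their part in these differences was not tested. Fabp4 belongs to both lists.

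Lipolysis genes were divided. Hormone-sensitive lipase, Lipe, had 66.5 TPM in replicate 1 and 16.0 TPM in replicate 2, and the triglyceride lipase Pnpla2 341 and 198 TPM. The lipid droplet protein Plin2 had 87.3 and 72.4 TPM. Plin5, which muscle uses to hold droplets near mitochondria, had 63.5 and 86.4 TPM, higher in replicate 2. The list's log2 ratios ran from -0.59 for Plin5 to 1.89 for Lipe.

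Peroxisomes shorten very long chains by a separate set of enzymes, and most of these were present at lower levels. Scp2, a thiolase and sterol carrier, had 296 and 146 TPM, the thiolase Acaa1a 69.7 and 56.5 TPM and the bifunctional enzyme Hsd17b4 37.8 and 33.2 TPM. Acaa1b had 7.47 and 1.25 TPM, but it is a close copy of Acaa1a and the division of reads between them is uncertain. The transporter Abcd2 had 14.7 and 3.77 TPM, and its log2 ratio was 1.81. The other 8 genes of the list did not pass 2-fold with TMM, where Scp2 was 1.95-fold higher in replicate 1, just under the limit.

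Among enzymes of ketone bodies, Acat1 and Oxct1, which tissues such as muscle need to use them, led. The thiolase Acat1 averaged 170 ± 15.1 TPM and Oxct1, which activates acetoacetate, 160 ± 7 TPM. No gene of this list with 100 mean counts passed 2-fold.

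Most of the 10 genes were carried by a single transcript model, and the leading model was the same in both pups for all 10. Cpt1a, Acadl and Fabp3 had all their TPM in 1 model. The leading model held 99.5% ± 0.17 of the TPM of Slc25a20, 97.3% ± 0.997 of Cpt1b, 95.2% ± 0.099 of Acadm and 89.5% ± 0.771 of Acadvl. In Cpt2 the 5-exon model Cpt2-201 held 81.8% and 72.9%, and Cpt2-203, which lacks a 1305-nt exon, 17.3% and 20.4%. Cpt2-206, a retained-intron model, was listed at 0 in replicate 1 and held 6.04% in replicate 2. Hadhb was divided between Hadhb-201, at 61.0% and 62.9%, and Hadhb-203, at 34.0% and 32.3%. Those models have 14 of 16 exons in common and differ in the first and the last.

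**Figure D3:**
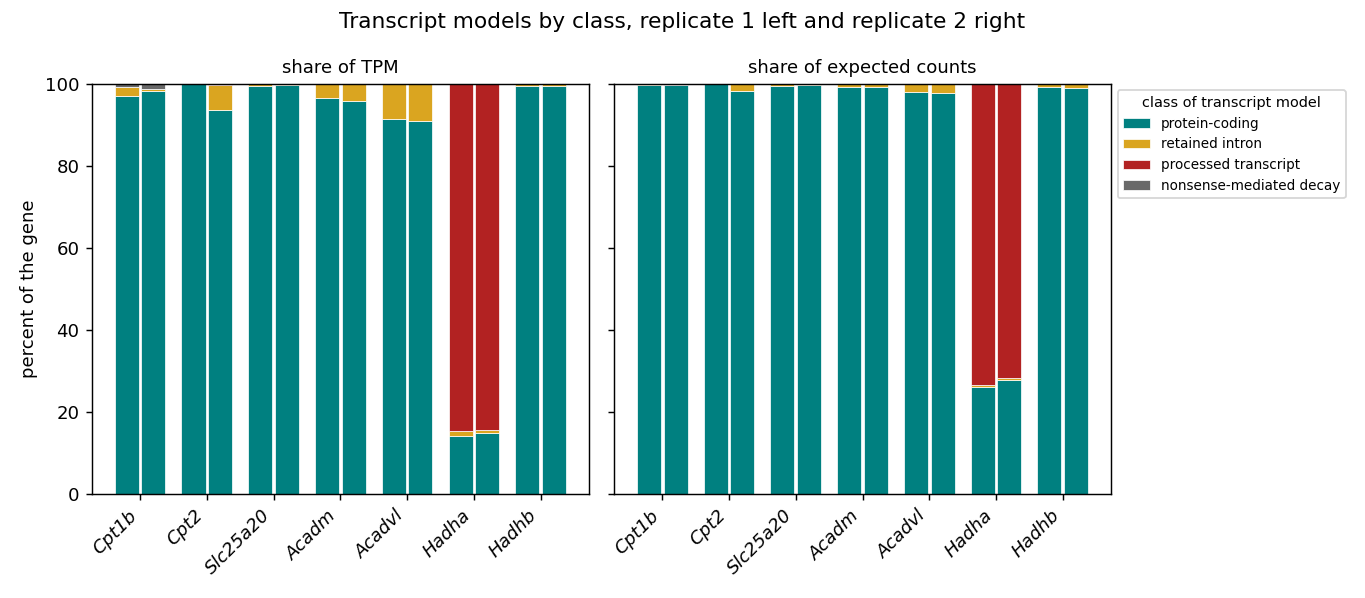
Share of each gene's TPM (left) and expected counts (right) by class of transcript model, with replicate 1 left of replicate 2, for the 7 genes with TPM in more than 1 model. Protein-coding models hold over 90% in each gene except Hadha, where they hold 14.2% and 14.9% of TPM.

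Hadha was the exception. Its protein-coding model, Hadha-205, held 14.2% and 14.9% of the gene's TPM, or 26.0% and 27.8% of its expected counts. The leading model, Hadha-201, which GENCODE M21 classes as a processed transcript and not as protein-coding, held 61.7% and 58.9% of TPM and 70.9% and 69.0% of counts. Hadha-204, a model of 323 nt, held 23.0% and 25.4% of TPM but 2.42% and 2.72% of counts. Hadha-201 and Hadha-205 have 16 of 20 exons in common. They differ in the first exon and in the last 3, which are 83, 21 and 535 nt long in Hadha-201 and 115, 146 and 1657 nt long in Hadha-205. Over the common exons reads cannot tell the models apart, so their shares rest on those 4 exons and on the authors' model. With protein-coding models alone, the log2 ratio of Hadha to Hadhb would be -3.26 in place of -0.49, and the gene-level ratio does not compare coding transcripts. The class comes from GENCODE M21, and that of these models in GENCODE M4, on which the authors' quantification rests, was not checked.

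**Figure D4:**
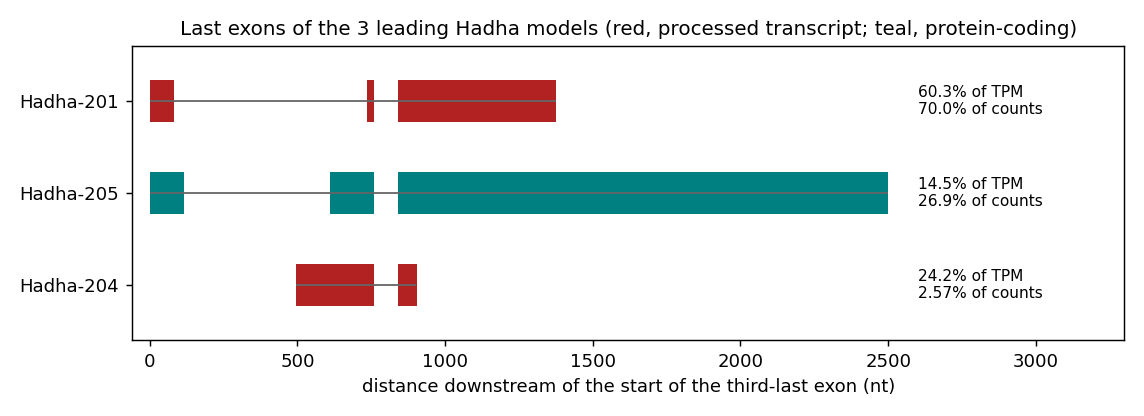
Last exons (boxes) of Hadha-201, Hadha-205 and Hadha-204 to scale, by distance in nt downstream of the start of the third-last exon of Hadha-201 and Hadha-205, with each model's mean share of TPM and of expected counts. Hadha-201 ends in an exon of 535 nt and Hadha-205 in an exon of 1657 nt.

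Several of the 10 genes overlap a neighbour, and whether the counting used strand is not given in the sources used here. Cpt1b has 81.4% of its exon bases in common with a longer read-through model on the same strand, which had 17.7 and 39.7 counts beside the 10392 and 10641 of Cpt1b. Acadvl has 42.9% of its exon bases opposite Dvl2, a signalling gene of the Wnt pathway, at 9.5 and 9.52 TPM. Fabp3 has 9.84% opposite Zcchc17, at 43.8 and 37.7 TPM, and 9.72% opposite Gm10570, at 0.89 and 1.79 TPM. Hadha has 0.859% opposite Garem2, at 0.05 and 0.08 TPM. The partners were all at far lower levels than the genes they overlap.

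Heart and liver markers were low, and brown fat markers were mixed. The 8 heart markers, which include Nppa and Tnni3, summed to 6.95 and 6.97 TPM, and the defining factors Nkx2-5, Tbx20 and Gata4 were between 0 and 0.23 TPM. Ucp1, which defines brown fat, had 0.13 TPM in replicate 1 and was listed at 0 in replicate 2. The 6 brown fat markers summed to 304 and 410 TPM. Most of that sum was Cox7a1, a cytochrome oxidase subunit also used by muscle, at 276 and 383 TPM, and Cidea, a lipid droplet protein, had 24.8 and 23.9 TPM. The part of brown fat in the levels of the 10 genes was not tested. The 8 liver markers summed to 22.6 and 31.0 TPM.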

How the data were processed

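Total RNA of 2 newborn muscle samples was used. Per the labels, libraries started from 10 ng of RNA above 200 nt. Quantification used mm10 and GENCODE M4, per the files that accompany the tables. Which aligner and quantifier were run is not given in the sources used here. The authors deposited expected counts, estimated reads per gene or transcript, and TPM, per the file headers. They also deposited each transcript's share of its gene as a percent, per the file headers.

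Names and positions came from GENCODE M21 (mm10), matched by ID without version for 42462 of 43346 gene rows, and upstream sequences from RefSeq (GRCm38.p6). Ratios of genes used log2(TPM + 0.1). Ratios between pups used expected counts rounded to whole numbers, TMM in edgeR 4.0.16 (R 4.3.3) over genes with at least 10 mean counts, and log2 CPM with a prior count of 2. The 2-fold rule asked for 100 mean counts. Intervals are exact Clopper-Pearson intervals at 95%, treat each read as independent and cover counting error only. Reads copied by PCR and without molecular identifiers may stem from 1 molecule, so the intervals may be too narrow. DESeq2 1.42.0 gave alternative size factors. No p-value was computed: the comparison between pups has no residual degrees of freedom, and an exact sign-flip test of a gene ratio over 2 libraries cannot pass the usual threshold. No search for genes of like pattern was made, since 2 libraries give no pattern to match.

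The 10 genes and all lists were chosen with earlier results of these data known. Named are the 10 genes, the 3 most abundant genes of each list, every list gene past the 2-fold rule, overlapping partners and marker genes, and some genes that this rule names are not reported here. Cpt1c, Acads, Acaca, Acacb, Slc22a5, Cd36, Acsl5, Acsl6, Abhd5, Ppara, Ppargc1a and Esrra were named outside this rule. Alternatives covered pseudocount, posterior means, length correction, transcript models, scaling, filters, limits and leaving out each replicate. Of the list genes, 1 (Tmlhe) had no match.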

Additional observations from a re-analysis of the deposited data

How the results depend on the processing

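With 2 libraries each SD rests on a single difference, and no direction between genes was tested. The log2 ratio of Cpt1a to Cpt1b was -3.12 with 1 TPM added, -2.58 in expected counts not corrected for length and -3.16 with protein-coding models alone, and -3.22 to -3.17 with each replicate left out. That of Hadha to Hadhb was -0.494 from posterior means, -0.36 in expected counts and -3.26 with protein-coding models alone, and -0.49 with either replicate left out. That of Acadvl to Acadl was -1.16 in expected counts and -1.38 with protein-coding models alone, and -1.27 to -1.22 with each replicate left out. No ratio changed sign. The median log2 ratio of the 10 genes between the pups, -0.15 with TMM, was -0.048 with whole-library CPM, -0.013 with log2 of TPM plus 1 and -0.14 with no count filter. The 10 genes took 0.356% of protein-coding expected counts, and 0.320% to 0.331% of TPM with each replicate left out. The counts of the 10 genes at or above 1 TPM and past 2-fold did not change under any alternative run. Of the 79 wider genes, 7 were 2-fold higher in replicate 1 with TMM and with DESeq2 size factors, 9 in CPM and 10 in TPM, alternatives chosen after seeing the data. Rescaling TPM over nuclear protein-coding genes multiplied all levels by 1.18 in replicate 1 and 1.24 in replicate 2 and moved all 10 levels by more than 1 SD, and posterior means moved 5 of the 10. The share of the leading transcript moved by more than 1 SD in 5 of the 10 genes by expected counts and in 2 by posterior means. No paired analysis was possible because the series holds a single group. Depth did not limit the 10 genes, which had at least 1738 counts in each library.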

Other observations

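Enzymes that oxidise branched-chain and related acyl-CoAs, close relatives of the acyl-CoA dehydrogenases of fatty acids, were all at or above 1 TPM and below Acadm. Of all 21474 protein-coding genes, 58.2% reached 1 TPM. The isovaleryl-CoA dehydrogenase Ivd had 43.7 and 38.4 TPM in replicates 1 and 2, Acadsb 35.8 and 32.2 TPM and Acad8 26.6 and 22.0 TPM. None of the 4 genes of this list passed 2-fold between the pups.

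Factors of the PPAR and ERR families control many genes of fatty acid oxidation. In that list, which includes targets, 10 of the 11 genes were at or above 1 TPM, against 58.2% of all protein-coding genes. The targets Angptl4, Pdk4 and Ucp3 led with 83.7 and 61.2 TPM, 63.1 and 69.9 TPM, and 33.5 and 40.8 TPM. The coactivator Ppargc1a had 9.9 and 12.0 TPM and the receptor Esrra 19.4 and 22.7 TPM. The receptor Ppara had 18.9 and 31.9 TPM, but from 867 and 832 counts, a TMM log2 ratio of -0.17. Of the 10 genes of the list with 100 mean counts, 7 had negative and 3 had positive TMM ratios, with a median of -0.21. Pparg, the receptor of adipocytes, had 40.7 TPM in replicate 1 and 7.76 TPM in replicate 2, a log2 ratio of 2.22, the same direction as the other adipocyte markers.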
